A study of Mus musculus with 7 samples.

Results

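The comparison described here is GdX-deficient against wild-type mouse spleen 90 min after injection of lipopolysaccharide (LPS), a component of bacterial outer membranes. It uses 4 of the 7 libraries of the series, chosen by their titles: 2 from GdX-deficient and 2 from wild-type mice. Of the 17920 genes in the expression table, the 11378 with a mean of at least 1 FPKM (fragments per unit of transcript length and of sequencing depth) over all 7 libraries were tested. All mice were labelled C57BL/6, were 8 weeks old and received LPS at 20 mg/kg by intraperitoneal injection, and no spleen without LPS was analysed here. The knockout genotype is written GdX-/- in the sample labels and GdX-/Y in the treatment protocol, the second form being that of a male with an X-linked deletion. The other 3 libraries, 2 wild-type and 1 GdX-deficient at 6 h, enter only the estimate of spread and the comparison of the times. The design text counts 7 mice for the 7 libraries, so the libraries of a group come from separate animals. The labels name the material both spleen and splenocytes, and the protocol describes whole spleen crushed on ice.

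GdX, also called UBL4A and encoded by Ubl4a (chrX:74365718-74368548, GRCm38.p6), is a ubiquitin-like protein. With BAG6 and GET4 it holds newly made tail-anchored membrane proteins on their way to insertion into the endoplasmic reticulum. LPS binds TLR4, with CD14 and MD-2 (encoded by Ly96) as helper proteins, and the signal that follows frees NF-kB dimers from their IkB inhibitors. NF-kB then drives cytokine, chemokine and feedback genes, and interferon beta made in the same response drives a later group of interferon-stimulated genes.

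Depth, estimated from the steps between low FPKM values, was 18000000 to 19600000 fragments in the 4 libraries. The GdX-deficient libraries differed from each other more than the wild-type libraries did: 674 genes (5.92%) differed at least 2-fold between the former and 140 genes (1.23%) between the latter. Differences also followed transcript length. Across the 11180 genes with a known length, Spearman's rho between length and the difference from the wild-type mean was 0.432 in GdX-deficient library 1 and 0.377 in library 2. Between the wild-type libraries themselves (library 2 minus library 1) it was 0.446. These correlations are across genes, which are not independent replicates. Spleen markers were present in all 4 libraries: the 18 B-cell markers summed to 3012 to 4131 FPKM, while 11 pancreas markers summed to 7.7 to 9.3 FPKM. Fat markers summed to 51.5 and 41.9 FPKM in wild type and to 18.3 and 17.5 FPKM in the GdX-deficient pair. Most of that was Fabp4, at 50.9 and 37.25 FPKM against 18.3 and 17.1 FPKM. Adipoq was at most 0.2 FPKM and Plin4 at most 0.02 FPKM, so the sum does not show a difference in fat tissue.

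The targeted gene was read first. Ubl4a stood at 5.62 and 7.5 FPKM in wild-type libraries 1 and 2, and at 4.03 and 5.69 FPKM in GdX-deficient libraries 1 and 2. The genotypes overlapped, and the difference was -0.37 on the log2(FPKM + 1) scale (SE 0.31, limma adjusted p = 0.661). Gm44504, an overlapping entry that RefSeq also names Slc10a3-ubl4, stood at 15.4 and 14.5 FPKM in wild type and at 1.01 and 1.86 FPKM in the GdX-deficient libraries. Its difference of -2.73 (SE 0.39) did not pass in the fit of all 7 libraries (limma adjusted p = 0.138) and passed in the fit of the 4 libraries at 90 min alone (limma adjusted p = 1.18e-05). How fragments were divided between both entries is not given in the sources used here, so neither level is certain alone. Added together they gave 21.02 and 22.02 FPKM in wild type and 5.04 and 7.55 FPKM in GdX-deficient spleen without overlap.

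In the fit of all 7 libraries, 2 genes (0.0176% of those tested) passed an adjusted p of 0.05, both higher in GdX-deficient spleen, and 862 (7.58%) had an unadjusted p under 0.05. Both were beta-globin genes. With wild-type library 1 or 2 at 6 h left out, that fit called 173 or 183 genes. Fitted on the 4 libraries at 90 min alone, limma called 181 genes (1.59%), 84 higher (0.738%) and 97 lower (0.853%) in GdX-deficient spleen, and 1654 (14.5%) had an unadjusted p under 0.05. That count depended on scaling: after quantile normalization it was 5, and with the trend on transcript length removed from each library it was 8, and 4 of the former and all 8 of the latter were among the 181. Rescaling without the globin genes moved it the other way, to 346 calls, with 255 higher and 91 lower. Without GdX-deficient library 1 it was 2059, without GdX-deficient library 2 it was 155, and without wild-type library 1 it was 56. The calls of the 4-library fit are given below beside the library values, as calls of that fit only. Differences and standard errors (SE) are those of the fit of 7 libraries, and the adjusted p names its fit. Both GdX-deficient libraries lay above both wild-type libraries for 2739 genes (24.1%) and below both for 2662 (23.4%), together 47.5%, which is the background for every count of members that did not overlap. The median difference of all genes tested was 0.07 on the log2 scale, -0.04 in GdX-deficient library 1 and 0.18 in library 2. Rescaling FPKM without the globin genes moved it to 0.25.

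The beta-globin genes separated the genotypes by far more than any other gene. Hbb-b1 stood at 13.8 and 8.11 FPKM in wild type and at 44998 and 32880 FPKM in the GdX-deficient libraries (log2 difference 11.69, SE 0.31, limma adjusted p = 1.62e-07). Hbb-b2 stood at 3.59 and 4.68 FPKM in wild type and at 11053 and 8278 FPKM in the GdX-deficient libraries (log2 difference 10.87, SE 0.33, limma adjusted p = 2.90e-07). Both genes rose in both libraries, and the groups were far apart. As background, mouse strains carry one of several beta-globin haplotypes: Hbb-bs and Hbb-bt form the adult pair of the haplotype found in C57BL/6, and Hbb-b1 and Hbb-b2 the adult pair of another. A difference of strain background that goes with the genotype, at this locus or elsewhere, and the loss of GdX cannot be told apart in any comparison given here. Hbb-bs stood at 54520 and 42014 FPKM in wild type and at 38737 and 27637 FPKM in the GdX-deficient libraries, lower in both without passing either fit (log2 difference -0.55, limma adjusted p = 0.679 with 7 libraries). Summed over Hbb-b1, Hbb-b2, Hbb-bs and Hbb-bt, beta-globin came to 69040 and 52726 FPKM in wild type and 103258 and 75772 FPKM in the GdX-deficient libraries. Summed over Hba-a1 and Hba-a2, alpha-globin came to 105382 and 77399 FPKM in wild type and 118149 and 78375 FPKM in the GdX-deficient pair. The copies are near-identical, so the split of fragments among them is uncertain. In whole-tissue RNA, fewer cells of a type and less RNA per cell cannot be told apart. The 6 genes together took 19.2% to 30.9% of all FPKM in a library.

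**Figure D1:**
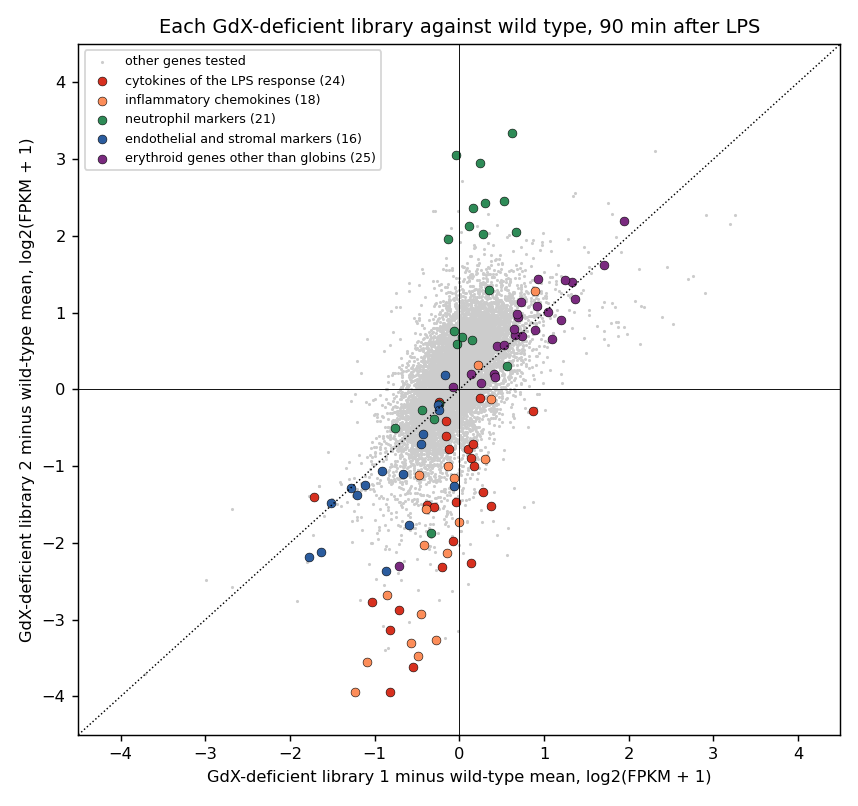
Difference of each gene from the wild-type mean, log2(FPKM + 1), in GdX-deficient library 1 (horizontal) and library 2 (vertical) at 90 min; grey points are all other genes tested, coloured points the members of 5 lists, and the dotted line marks equal differences. The medians in library 1 and library 2 are 0.73 and 0.79 for erythroid genes and -0.77 and -1.25 for stromal markers, against -0.14 and -1.43 for cytokines, -0.34 and -1.88 for inflammatory chemokines and 0.12 and 1.29 for neutrophil markers. 4 genes lie outside the axes, Hbb-b1 and Hbb-b2 among them.

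The 2 GdX-deficient libraries did not depart from wild type in the same way. Library 1 lay below both wild-type libraries while library 2 lay above both for 1549 genes (13.6%), and the reverse held for 168 (1.48%). For a further 1755 genes (15.4%) library 2 was above both wild-type libraries with library 1 between them. Some gene groups had like medians in both libraries, others differed from wild type mainly in library 2, and the interferon-stimulated genes differed mainly in library 1. The plot of both libraries against wild type shows 5 of these groups, and the plot of list medians shows the others.

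Cytokines of the LPS response stood lower in GdX-deficient spleen, mostly in library 2. Of 24 cytokine genes tested, 12 were below both wild-type libraries in both GdX-deficient libraries and 0 were above. None was called in the fit of 7 libraries, and 5 were called lower in the fit of the 4 libraries. The median difference was -0.66 over both libraries, -0.14 in library 1 and -1.43 in library 2. All 24 lay below both wild-type libraries in library 2, where 3407 of all 11378 genes tested did.

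Il6, the main inducer of the acute phase response, stood at 185 and 120 FPKM in wild type and at 72.2 and 20.98 FPKM in the GdX-deficient libraries. Csf3, which encodes the neutrophil growth factor G-CSF, stood at 42.2 and 33.5 FPKM in wild type and at 20.9 and 1.52 FPKM in the GdX-deficient libraries. Both were lowest in library 2 and did not overlap between genotypes. Il6 differed by -1.90 (SE 0.49, limma adjusted p = 0.520 with 7 libraries and 0.00602 with 4), and Csf3 by -2.38 (SE 0.78, limma adjusted p = 0.573 and 0.0166). Il12b, the shared subunit of IL-12 and IL-23, went from 62.1 and 52.8 FPKM to 38.9 and 3.76 FPKM. Ifnb1, which encodes interferon beta, went from 12.1 and 5.68 FPKM to 4.29 and 0.07 FPKM. These genes also had their lowest level in GdX-deficient library 2. Il1b, the inflammasome-processed cytokine, stood at 377 and 315 FPKM in wild type and at 265 and 120 FPKM in the GdX-deficient libraries, a difference of -0.95 (SE 0.37) that passed in neither fit. Tnf did not follow: it stood at 59.6 and 62.7 FPKM in wild type, 67.5 FPKM in GdX-deficient library 1 and 32.6 FPKM in library 2, above wild type in one and below it in the other.

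Inflammatory chemokines, which draw neutrophils and monocytes to a site of infection, had the larger differences. Of 18 tested, 11 were lower in both GdX-deficient libraries and 2 were higher, and the median was -1.06, with -0.34 in library 1 and -1.88 in library 2. In the fit of the 4 libraries 5 were called lower (Cxcl1, Cxcl2, Ccl2, Ccl7 and Ccl22) and 1 higher (Xcl1), and none was called with 7 libraries.

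Cxcl1, a ligand of the neutrophil receptor CXCR2, stood at 513 and 359 FPKM in wild type and at 182 and 27.1 FPKM in the GdX-deficient libraries (log2 difference -2.59, SE 0.69, limma adjusted p = 0.00245 with 4 libraries). Cxcl2, a second CXCR2 ligand, stood at 183 and 158 FPKM in wild type and at 114 and 16.4 FPKM in the GdX-deficient libraries (-1.94, SE 0.67, limma adjusted p = 0.0259 with 4 libraries). For both genes library 2 was several times lower than library 1, and library 1 was still below wild type. Ccl2, the main monocyte attractant, stood at 442 and 316 FPKM in wild type and at 207 and 57.5 FPKM in the GdX-deficient libraries. Ccl7, a related monocyte attractant, stood at 71.3 and 45.7 FPKM in wild type and at 26.2 and 3.97 FPKM in the GdX-deficient libraries. Ccl22, which attracts CCR4-bearing T cells, stood at 51.5 and 61.8 FPKM in wild type and at 39.9 and 4.17 FPKM in the GdX-deficient libraries. All 3 were below both wild-type libraries in GdX-deficient library 1 and lowest in library 2. Ccl5, which attracts T cells, differed from them: it stood at 601 and 829 FPKM in wild type and at 868 and 377 FPKM in the GdX-deficient libraries, so library 1 was highest and library 2 lowest. Xcl1, a chemokine of natural killer and CD8+ T cells, ran the other way, with 17.6 and 15.4 FPKM in wild type and 31.4 and 41.3 FPKM in the GdX-deficient libraries (1.08, SE 0.31, limma adjusted p = 0.0498 with 4 libraries).

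**Figure D2:**
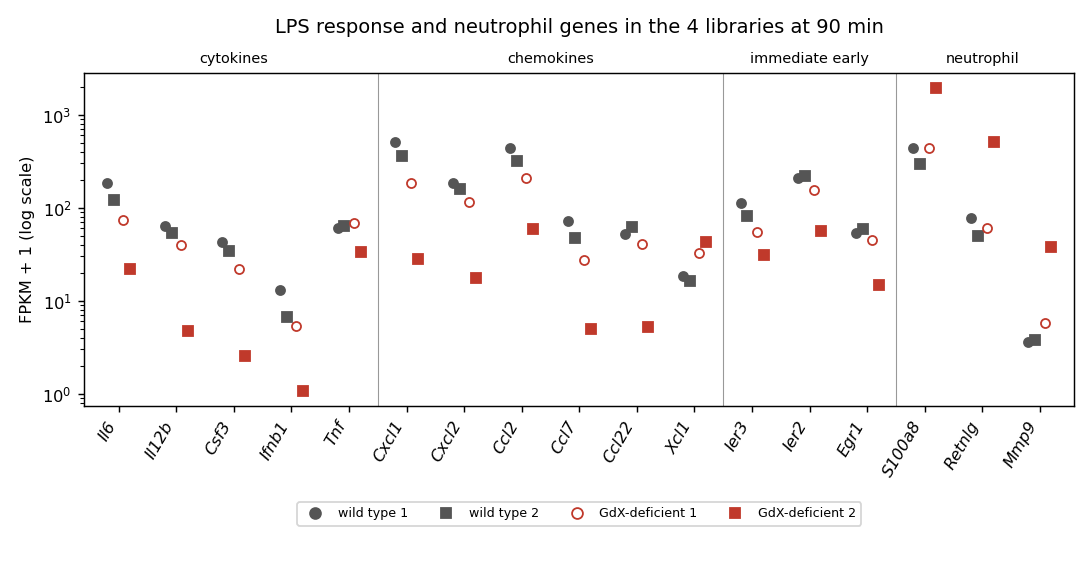
FPKM + 1 on a log scale for cytokine, chemokine, immediate early and neutrophil genes in each of the 4 libraries at 90 min; grey marks are wild type, red marks GdX-deficient, circles library 1 and squares library 2. The red squares lie lowest for most cytokine and chemokine genes and highest for the neutrophil genes, while the red circles mostly lie between them and wild type, though above wild type for Tnf.

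The promoters of the neutrophil chemokines and of Il6 are shown, NF-kB targets that were called lower with 4 libraries and had a motif match. Ccl2 and Ccl7, also called lower, were searched too and gave no window with a match. The promoters shown therefore do not stand for all genes called lower. Each sequence is the 250 bases before the start of the gene, plus strand, from RefSeq on GRCm38.p6, with matches to an NF-kB motif (GGGA and CC with any 4 bases between, either strand, overlapping matches joined) in capitals. The windows are chr5:90890995-90891244 (Cxcl1), chr5:90903649-90903898 (Cxcl2) and chr5:30012864-30013113 (Il6).
Cxcl1: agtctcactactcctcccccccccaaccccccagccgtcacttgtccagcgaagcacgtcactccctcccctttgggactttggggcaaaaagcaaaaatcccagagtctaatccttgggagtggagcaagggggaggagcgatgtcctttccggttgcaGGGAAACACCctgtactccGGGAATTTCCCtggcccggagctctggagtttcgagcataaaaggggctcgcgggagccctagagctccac
Cxcl2: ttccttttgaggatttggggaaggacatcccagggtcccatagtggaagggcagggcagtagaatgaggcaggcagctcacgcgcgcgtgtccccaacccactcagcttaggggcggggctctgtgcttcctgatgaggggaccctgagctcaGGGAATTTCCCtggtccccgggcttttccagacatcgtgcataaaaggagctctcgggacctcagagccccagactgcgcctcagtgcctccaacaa
Il6: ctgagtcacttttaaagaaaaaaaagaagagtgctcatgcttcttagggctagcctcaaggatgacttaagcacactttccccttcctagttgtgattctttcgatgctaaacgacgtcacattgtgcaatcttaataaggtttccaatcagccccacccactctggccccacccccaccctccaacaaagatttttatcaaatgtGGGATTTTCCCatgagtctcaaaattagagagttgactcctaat
Cxcl1 has a match 61 to 71 bases before the start and another 81 to 90 bases before it. Cxcl2 has one at 87 to 97 bases and Il6 one at 34 to 44 bases. The 11-base matches of Cxcl1 and Cxcl2 are the same letters, GGGAATTTCCC. In windows reaching from 250 bases before to 50 bases after the start, the motif was found for 6 of 12 inflammatory chemokines and 9 of 18 cytokine genes with a promoter in the table. The share was 30.1% of the 9146 tested genes with one and 31.4% of the 70 genes called lower with 4 libraries. A match is a description of these letters, not a site of binding.

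NF-kB subunits and their inhibitors gave smaller differences with both signs. Of 25 tested, 2 were higher and 5 lower in both GdX-deficient libraries, none was called in either fit, and the median was -0.27, with 0.06 in library 1 and -0.60 in library 2. The median turned to 0.06 when library 2 was left out. Nfkbia, which encodes the inhibitor IkB-alpha and is itself a rapid NF-kB target, stood at 1516 and 1266 FPKM in wild type and at 991 and 414 FPKM in the GdX-deficient libraries (-1.11, SE 0.43, limma adjusted p = 0.621). Nfkb1, the gene of the p50 subunit, stood at 102 and 173 FPKM in wild type and at 139 and 87.5 FPKM in the GdX-deficient libraries, which overlapped. Irak3, a brake on receptor signalling, lay higher at 10.7 and 16.2 FPKM against 5.57 and 10.1 FPKM in wild type.

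Other LPS-induced genes were mixed in direction. Of 20 effector genes tested, 10 were lower and 2 higher in both GdX-deficient libraries, with a median of -0.35, or -0.06 in library 1 and -0.57 in library 2. In the fit of the 4 libraries Sele and Ptx3 were called lower and Acod1 higher. Sele, the endothelial adhesion molecule E-selectin, stood at 8.35 and 9.27 FPKM in wild type and at 5.08 and 0.76 FPKM in the GdX-deficient libraries. Ptx3, a secreted pattern receptor, stood at 4.37 and 3.23 FPKM in wild type and at 1.33 and 0.19 FPKM in the GdX-deficient libraries. Both were lowest in library 2. Acod1, the enzyme that makes itaconate in activated myeloid cells, stood at 39.1 and 55.9 FPKM in wild type and at 77.9 and 149 FPKM in the GdX-deficient libraries (1.19, SE 0.38, limma adjusted p = 0.039 with 4 libraries). Ptgs2, the inducible cyclooxygenase, stood at 18.8 and 16.6 FPKM against 14.4 and 2.66 FPKM and passed in neither fit.

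Immediate early genes, which respond to many stimuli without new protein, were lower to a degree that again depended on the library. Of 26 tested, 13 were lower in both GdX-deficient libraries and 0 higher, and the median was -0.60, with -0.20 in library 1 and -1.09 in library 2. Ier3, an NF-kB-responsive survival gene, stood at 112 and 80.0 FPKM in wild type and at 53.7 and 30.3 FPKM in the GdX-deficient libraries (-1.21, SE 0.35), and was the only member called with 4 libraries (limma adjusted p = 0.0325). Egr1, a zinc finger transcription factor, stood at 52.3 and 58.1 FPKM in wild type and at 43.5 and 13.8 FPKM in the GdX-deficient libraries. Fos, an AP-1 subunit, stood at 15.3 and 18.3 FPKM in wild type and at 12.6 and 5.83 FPKM in the GdX-deficient libraries. For both, library 1 was close under the lower wild-type library.

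The receptor side of the pathway had small differences. Among 22 LPS receptor and signalling genes tested, 5 were higher and 1 lower in both GdX-deficient libraries, none was called in either fit, and the median was 0.18, with 0.04 in library 1 and 0.29 in library 2. It was 0.38 after rescaling without globins, which moved the median of all genes to 0.25. Cd14 stood at 268 and 316 FPKM in wild type and at 290 and 207 FPKM in the GdX-deficient libraries, so the groups overlapped. Tlr4 was low throughout, at 1.55 and 1.30 FPKM in wild type and 1.47 and 3.13 FPKM in the GdX-deficient pair. The STAT3 and acute phase list had a median of 0.02 over 23 genes tested, with the other sign under 3 of 16 alternatives. Its single call with 4 libraries was Serpina3i, a member of a cluster of close protease inhibitor copies, at 1.96 and 2.82 FPKM in wild type and 24.4 and 15.2 FPKM in the GdX-deficient libraries (2.59, SE 0.33, limma adjusted p = 3.92e-05 with 4 libraries and 0.0787 with 7). Saa3, an acute phase gene, stood at 120 and 109 FPKM in wild type and at 88.3 and 36.8 FPKM in the GdX-deficient libraries.

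Interferon-stimulated genes lay mostly above wild type in GdX-deficient library 1 and near it in library 2. Of 38 tested, 36 lay above both wild-type libraries in library 1, where 3222 of all 11378 genes tested did. In library 2, 14 of the 38 did, where 6043 of all genes tested did. In both GdX-deficient libraries 14 were higher and 2 lower. The median was 0.29, with 0.52 in library 1 and 0.09 in library 2, and 1 gene, Stat2, was called with 4 libraries. Stat2, part of the transcription factor that interferons activate, stood at 32.2 and 67.5 FPKM in wild type and at 95.6 and 113 FPKM in the GdX-deficient libraries (1.14, SE 0.44, limma adjusted p = 0.049 with 4 libraries). Its wild-type libraries differed by about as much as the genotypes. Oas3, a sensor of double-stranded RNA, stood at 16.8 and 32.4 FPKM in wild type and at 55.0 and 43.2 FPKM in the GdX-deficient libraries. Isg15, the ubiquitin-like modifier of the interferon response, stood at 853 and 912 FPKM in wild type and at 1157 and 729 FPKM in the GdX-deficient libraries. Ifit1, a sensor of foreign RNA ends, stood at 509 and 444 FPKM in wild type and at 515 and 419 FPKM in the GdX-deficient libraries. For Isg15 and Ifit1 the GdX-deficient libraries lay on either side of wild type.

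The list shares a promoter feature. An interferon response element motif (a pair of GAAA runs with any 2 bases between, on either strand) was found in the window from 250 bases before to 50 after the start for 21 of the 31 members with a promoter in the table (67.7%), against 4.20% of the 9146 tested genes with one. Both members shown are described above and were picked among those with a match, which is in capitals as before. Neither was called with 4 libraries, and Stat2, which was called, also has a match and is not shown. The windows before the start are chr4:156200819-156201068, minus strand (Isg15), and chr19:34640639-34640888, plus strand (Ifit1), from RefSeq on GRCm38.p6.
Isg15: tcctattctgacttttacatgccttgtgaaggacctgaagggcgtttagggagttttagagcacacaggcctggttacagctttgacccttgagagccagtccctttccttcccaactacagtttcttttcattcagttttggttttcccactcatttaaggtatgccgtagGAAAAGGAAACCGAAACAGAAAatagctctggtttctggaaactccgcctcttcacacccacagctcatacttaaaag
Ifit1: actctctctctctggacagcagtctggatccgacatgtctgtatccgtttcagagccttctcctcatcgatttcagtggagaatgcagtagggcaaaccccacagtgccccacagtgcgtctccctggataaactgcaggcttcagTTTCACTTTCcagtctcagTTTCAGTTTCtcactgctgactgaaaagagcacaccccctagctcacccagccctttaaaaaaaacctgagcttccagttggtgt
The matches of Isg15 run together over 22 bases, 57 to 78 bases before the start. Ifit1 has them at 76 to 85 and 95 to 104 bases.

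Most genes of stromal and vascular cells stood lower in both GdX-deficient libraries, while 3 endothelial markers overlapped. Of 16 endothelial and stromal markers tested, 13 were lower in both and 0 higher, 7 were called lower in the fit of the 4 libraries, and 10 had an unadjusted p under 0.05 with 7 libraries. The median was -1.09, with -0.77 in library 1 and -1.25 in library 2, and it lay between -1.23 and -0.93 after quantile normalization, removal of the length trend and rescaling without globins. The summed FPKM of the 19 markers in the table was 404 and 296 in wild type and 159 and 121 in the GdX-deficient libraries.

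Tagln, an actin-binding protein of smooth muscle, stood at 142 and 75.7 FPKM in wild type and at 29.5 and 22.02 FPKM in the GdX-deficient libraries (-1.98, SE 0.34, limma adjusted p = 0.000368 with 4 libraries and 0.317 with 7). Acta2, smooth muscle actin, stood at 43.0 and 19.9 FPKM in wild type and at 8.75 and 5.98 FPKM in the GdX-deficient libraries (-1.88, SE 0.38). Des, the intermediate filament protein of muscle and pericytes, stood at 25.3 and 20.7 FPKM in wild type and at 9.33 and 8.17 FPKM in the GdX-deficient libraries. In all 3 the GdX-deficient libraries lay close together, apart from wild type. Dcn, a collagen-binding proteoglycan of fibroblasts, stood at 30.2 and 10.02 FPKM in wild type and at 5.46 and 5.64 FPKM in the GdX-deficient libraries. Cldn5, the tight junction protein of endothelium, stood at 56.2 and 52.3 FPKM in wild type and at 29.3 and 9.67 FPKM in the GdX-deficient libraries (-1.62, SE 0.44, limma adjusted p = 0.0145 with 4 libraries). Pecam1, an adhesion molecule of endothelium that platelets and leukocytes also carry, overlapped at 34.1 and 36.4 FPKM in wild type against 31.3 and 40.3 FPKM. The endothelial markers Cdh5, the gene of VE-cadherin, and Kdr, the gene of VEGF receptor 2, overlapped too. Cdh5 stood at 7.88 and 14.2 FPKM in wild type and at 10.1 and 3.84 FPKM in GdX-deficient spleen, and Kdr at 1.37 and 2.36 FPKM against 1.36 and 1.44 FPKM. Outside the list, Sparc, a matrix-binding glycoprotein, was called lower with 4 libraries at 39.4 and 28.3 FPKM against 90.7 and 93.7 FPKM (-1.44, SE 0.26, limma adjusted p = 0.00602). Igfbp6, a growth factor binding protein, and Cnn1, the smooth muscle protein calponin, were likewise called lower in that fit. Their wild-type libraries differed widely, at 20.3 and 2.33 FPKM for Igfbp6 and 8.35 and 1.81 FPKM for Cnn1, against at most 0.54 FPKM in the GdX-deficient pair.

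The chemokines that place lymphocytes in the spleen, made by stromal cells, were lower too. All 4 tested were lower in both GdX-deficient libraries, 3 were called with 4 libraries, and the median was -1.29, with -0.88 in library 1 and -1.61 in library 2. Ccl21a, a ligand of CCR7 that guides T cells and dendritic cells, stood at 271 and 177 FPKM in wild type and at 117 and 36.6 FPKM in the GdX-deficient libraries (-1.72, SE 0.49, limma adjusted p = 0.0119 with 4 libraries). Ccl19, the other CCR7 ligand, stood at 129 and 106 FPKM in wild type and at 63.5 and 26.97 FPKM in the GdX-deficient libraries. Cxcl12, the ligand of CXCR4, stood at 120 and 111 FPKM in wild type and at 54.6 and 51.7 FPKM in the GdX-deficient libraries (-1.10, SE 0.24, limma adjusted p = 0.0294 with 4 libraries). Cxcl12 was thus equally low in both libraries, while Ccl19 and Ccl21a were lower in library 2 than in library 1. Cxcl13, which draws B cells to follicles, stood at 110 and 91.0 FPKM in wild type and at 77.4 and 49.7 FPKM in the GdX-deficient pair and passed in neither fit. Copies of Ccl21 are close in sequence, so the level of each is uncertain. Stromal markers were lower in the same libraries, and their part in these levels was not tested.

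**Figure D3:**
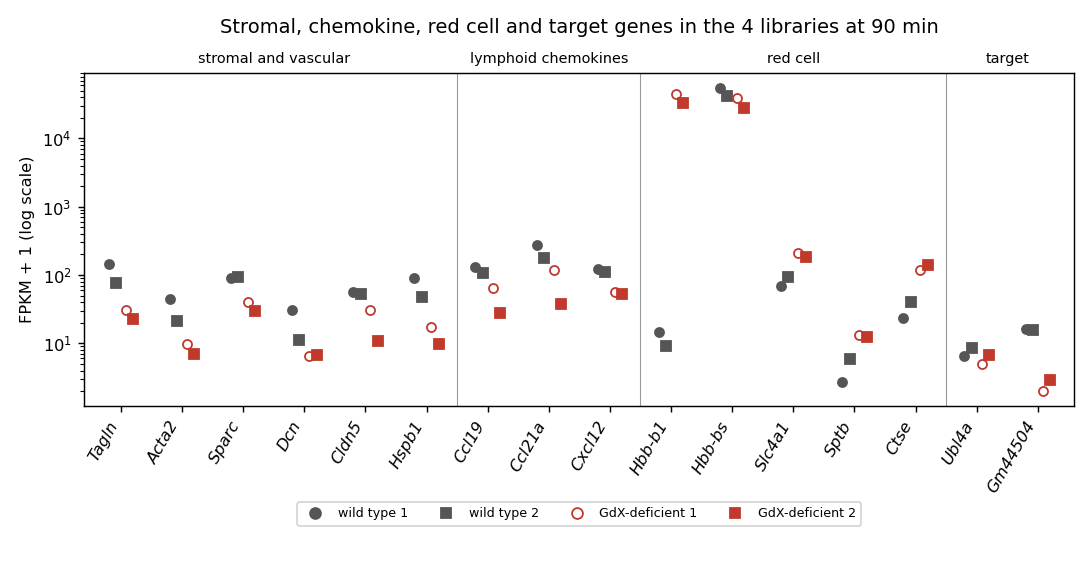
FPKM + 1 on a log scale for stromal and vascular, lymphoid chemokine, red cell and target genes in each of the 4 libraries at 90 min; grey marks are wild type, red marks GdX-deficient, circles library 1 and squares library 2. Both red marks lie below both grey marks for the stromal and chemokine genes and Hbb-bs, and above them for Hbb-b1, Slc4a1, Sptb and Ctse.

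Most red cell genes other than globins stood higher in both GdX-deficient libraries. Of 25 tested, 21 were higher in both and 1 lower, 9 were called higher and 1 lower with 4 libraries, and 18 had an unadjusted p under 0.05 with 7 libraries. The median was 0.83, with 0.73 in library 1 and 0.79 in library 2, and it ran from 0.73 to 1.04 over the settings tried. Slc4a1, the band 3 anion exchanger, stood at 68.7 and 92.6 FPKM in wild type and at 207 and 181 FPKM in the GdX-deficient libraries (1.27, SE 0.34, limma adjusted p = 0.0145 with 4 libraries). Sptb, erythroid beta-spectrin, stood at 1.68 and 4.98 FPKM in wild type and at 12.03 and 11.4 FPKM in the GdX-deficient libraries. These membrane and skeleton genes did not overlap between genotypes and were close in the 2 GdX-deficient libraries. Alas2, the first enzyme of erythroid heme synthesis, stood at 346 and 385 FPKM in wild type and at 779 and 574 FPKM in the GdX-deficient libraries (0.87, SE 0.28) and passed in neither fit. Ctse, the protease cathepsin E, stood at 22.6 and 38.7 FPKM in wild type and at 117 and 139 FPKM in the GdX-deficient libraries (2.07, SE 0.40, limma adjusted p = 0.000133 with 4 libraries), and was among the 8 genes called after removal of the length trend. The lower member, Mt2, is a metallothionein that many cell types make, at 902 and 634 FPKM in wild type and 462 and 153 FPKM in the GdX-deficient libraries.

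Proliferation genes lay slightly higher. Of 27 cell cycle and replication genes tested, 18 were higher and 1 lower in both GdX-deficient libraries, and none was called in either fit. The median was 0.31, with 0.23 in library 1 and 0.32 in library 2. Mki67, a marker of cycling cells, stood at 25.4 and 24.5 FPKM in wild type and at 43.3 and 48.7 FPKM in the GdX-deficient libraries (0.85, SE 0.28, limma adjusted p = 0.573 with 7 libraries). Rrm2, a subunit of ribonucleotide reductase, stood at 24.5 and 29.01 FPKM in wild type and at 39.96 and 51.4 FPKM in the GdX-deficient libraries.

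Neutrophil markers were high mainly in GdX-deficient library 2. Of 21 tested, 9 were higher and 2 lower in both GdX-deficient libraries, and Mmp9 and Csf3r were called higher with 4 libraries. The summed FPKM of the 21 markers was 1525 and 1067 in wild type, 1432 in GdX-deficient library 1 and 5299 in library 2. The median difference was 0.12 in library 1 and 1.29 in library 2. S100a8, a subunit of calprotectin, stood at 438 and 292 FPKM in wild type, 440 FPKM in GdX-deficient library 1 and 1935 FPKM in library 2. Retnlg, a resistin-like protein of neutrophils, stood at 76.0 and 48.0 FPKM in wild type and at 58.9 and 509 FPKM in the GdX-deficient libraries. Mmp9, a neutrophil gelatinase, stood at 2.63 and 2.76 FPKM in wild type and at 4.69 and 36.5 FPKM in the GdX-deficient libraries (1.98, SE 0.69, limma adjusted p = 0.0348 with 4 libraries). Library 1 was within the wild-type range for Retnlg and above it for Mmp9. For S100a8 it was level with the higher wild-type library, at 439.6 against 437.55 FPKM, though counted as higher. S100a9, the other subunit, was within the wild-type range in library 1, at 459 FPKM against 530 and 317 FPKM. Mpo, the myeloperoxidase of primary granules, did not share this pattern and stood at 3.10 and 2.56 FPKM in wild type and at 2.10 and 1.92 FPKM in the GdX-deficient pair. The library with the high neutrophil markers is also the one with the lowest cytokine, chemokine and immediate early genes, and the part of the one in the other was not tested.

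Natural killer and cytotoxic markers had like medians in both libraries, with members that differed between them. Of 13 tested, 7 were higher and 0 lower in both, 2 (Ncr1 and Xcl1) were called with 4 libraries, and the medians were 0.51 in library 1 and 0.50 in library 2. Ncr1, the activating receptor NKp46, stood at 2.87 and 3.53 FPKM in wild type and at 6.65 and 12.7 FPKM in the GdX-deficient libraries (1.29, SE 0.35, limma adjusted p = 0.0487 with 4 libraries). Klrk1, the receptor NKG2D, stood at 8.13 and 11.2 FPKM in wild type and at 16.6 and 19.9 FPKM in the GdX-deficient libraries. Lymphocyte markers gave no common direction. The median of the 18 B-cell markers was -0.17 in library 1 and 0.41 in library 2, and that of 19 T-cell markers was -0.13 and 0.22, where all genes tested had -0.04 and 0.18. Cd22, an inhibitory receptor of B cells, was the only one of them called with 4 libraries, at 33.7 and 58.0 FPKM in wild type and 69.4 and 158 FPKM in the GdX-deficient libraries (1.22, SE 0.48, limma adjusted p = 0.0491).

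Macrophage and dendritic cell markers were more often lower than higher in both libraries. Of 14 red pulp macrophage markers tested, 6 were lower in both GdX-deficient libraries and 0 higher, with a median of -0.10 that was 0.08 after rescaling without globins. Spic, the defining transcription factor gene of these cells, overlapped at 181 and 164 FPKM against 173 and 171 FPKM. Of 5 marginal zone macrophage markers, 4 were lower in both. Marco, a scavenger receptor of marginal zone macrophages, was called lower with 4 libraries, at 129 and 105 FPKM in wild type and 60.3 and 38.9 FPKM in the GdX-deficient libraries (-1.25, SE 0.33, limma adjusted p = 0.0198). Of 13 dendritic cell markers, 7 were lower and 1 higher in both, with a median of -0.29. Ccr7, the receptor for Ccl19 and Ccl21a, stood at 139 and 160 FPKM in wild type and at 125 and 55.7 FPKM in the GdX-deficient libraries.

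Platelet, coagulation and complement genes were mostly lower. Of 8 platelet markers 5, of 13 coagulation genes 10 and of 14 complement genes 11 were lower in both GdX-deficient libraries, and none was higher in both. Their medians were -0.51, -0.73 and -0.47. Pf4, platelet factor 4, stood at 91.4 and 71.4 FPKM in wild type and at 41.5 and 34.95 FPKM in the GdX-deficient libraries (-1.06, SE 0.34, limma adjusted p = 0.0434 with 4 libraries). Serping1, the C1 inhibitor, stood at 30.9 and 31.6 FPKM in wild type and at 18.6 and 10.7 FPKM in the GdX-deficient pair and passed in neither fit.

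Stress genes included some of the clearest single differences. Hspb1, a small heat shock protein abundant in muscle and endothelium, stood at 90.6 and 47.1 FPKM in wild type and at 16.6 and 8.81 FPKM in the GdX-deficient libraries (-2.34, SE 0.39, limma adjusted p = 0.000133 with 4 libraries and 0.317 with 7), and was also called after removal of the length trend. Cryab, its relative alpha-B-crystallin, stood at 5.48 and 3.98 FPKM in wild type and at 1.00 and 1.11 FPKM in the GdX-deficient libraries (-1.47, SE 0.29). Most stromal markers were also lower in both GdX-deficient libraries, and their part in the Hspb1 and Cryab levels was not tested. The inducible Hsp70 gene Hspa1b did not follow, at 11.6 and 7.24 FPKM in wild type, 3.41 FPKM in GdX-deficient library 1 and 12.2 FPKM in library 2. Among 18 heat shock genes tested, 8 were lower and 1 higher in both. Metallothioneins, which bind zinc and respond to glucocorticoids and metals, were lower, most in library 2: Mt1 stood at 1195 and 823 FPKM in wild type and at 629 and 210 FPKM in the GdX-deficient libraries (-1.44, SE 0.52, limma adjusted p = 0.0338 with 4 libraries).

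Genes of the complexes that work with GdX had small differences. Of 16 genes of tail-anchored protein insertion tested, 1 was higher and 4 lower in both GdX-deficient libraries, none was called in either fit, and the median was 0.07, equal to that of all genes and with the other sign under 2 of 16 alternatives. Bag6 stood at 25.6 and 42.9 FPKM in wild type and at 42.3 and 41.1 FPKM in the GdX-deficient pair, and Get4 at 25.8 and 24.6 FPKM against 20.9 and 22.6 FPKM. Of 13 X chromosome neighbours tested, 2 were higher and 2 lower in both. Slc10a3, next to Ubl4a, stood at 4.42 and 5.44 FPKM in wild type and at 2.86 and 3.38 FPKM in the GdX-deficient libraries (-0.52, SE 0.37), which passed in neither fit.

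Genes of ribosomes and of mitochondrial respiration, whose transcripts are mostly short, lay lower nearly throughout. Of 80 ribosomal protein genes tested, 58 were lower in both GdX-deficient libraries and 0 higher, with a median of -0.38. Of 76 nuclear genes of oxidative phosphorylation, 63 were lower in both and 0 higher, with a median of -0.43. None was called in either fit. With the length trend removed from each library the medians were -0.03 and -0.08. Among the 2796 shortest genes 1267 were lower and 247 higher in both libraries, and among the 2794 longest 277 were lower and 1160 higher. Ribosomal protein genes summed to 194143 and 139666 FPKM in wild type and to 123912 and 127884 FPKM in the GdX-deficient libraries, so the wild-type libraries differed more from each other than the lower of them did from the GdX-deficient ones. Rplp1, an acidic ribosomal stalk protein, stood at 8512 and 4985 FPKM in wild type and at 4016 and 4010 FPKM in the GdX-deficient libraries.

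**Figure D4:**
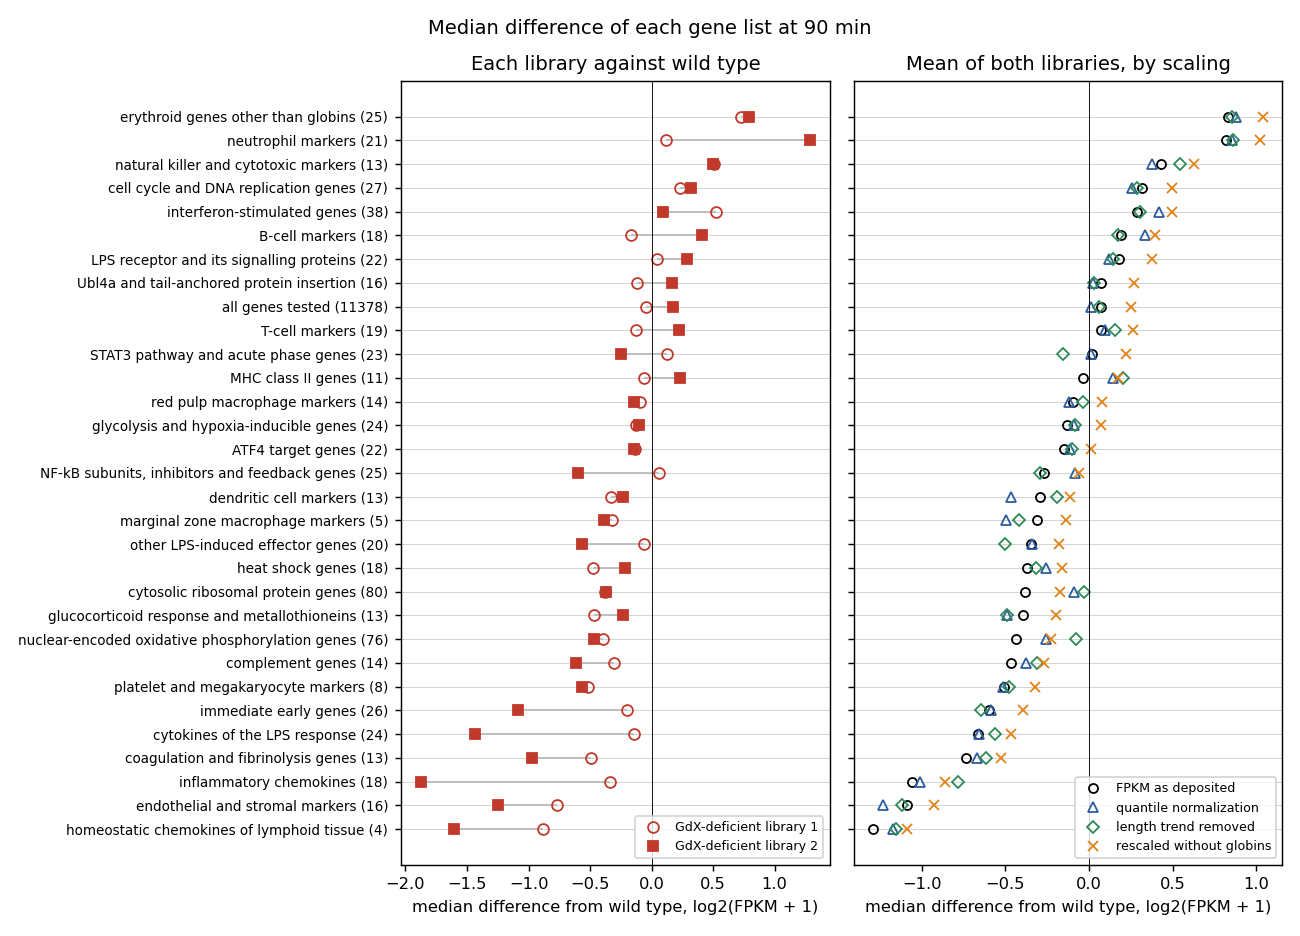
Median difference from wild type, log2(FPKM + 1), of the members tested in each list (number in brackets) at 90 min, for each GdX-deficient library (left) and for the mean of both under 4 scalings (right). Inflammatory chemokines run from -0.34 in library 1 to -1.88 in library 2, while erythroid genes lie at 0.73 and 0.79; ribosomal protein genes move from -0.38 to -0.03 with the length trend removed.

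Among the remaining genes with the smallest p-values in the fit of the 4 libraries, Chil1, a secreted chitinase-like protein, was higher at 29.02 and 40.9 FPKM against 7.28 and 7.94 FPKM (2.04, SE 0.30, limma adjusted p = 0.000296 with 4 libraries). Slfn4, an interferon-inducible gene of myeloid cells, stood at 13.9 and 25.1 FPKM in wild type and at 49.7 and 115 FPKM in the GdX-deficient libraries. Apol11b, an apolipoprotein L gene, stood at 29.9 and 30.8 FPKM in wild type and at 163 and 59.1 FPKM in the GdX-deficient libraries, highest in library 1. Rps27rt, a copy of the ribosomal protein gene Rps27, stood at 12.2 and 11.9 FPKM in wild type and was listed at 0 in both GdX-deficient libraries, but it was also listed at 0 in 1 of the wild-type libraries at 6 h. Gdf15, a stress-induced growth factor, stood at 34.3 and 28.9 FPKM in wild type and at 13.4 and 3.86 FPKM in the GdX-deficient libraries. Star, the steroidogenic acute regulatory protein, stood at 60.1 and 53.0 FPKM in wild type and at 26.5 and 10.9 FPKM in the GdX-deficient libraries. Of the 84 higher calls 24 had names of the form Gm or LOC with a number, or ending in Rik, against 8 of the 97 lower calls. The higher call 9930111J21Rik1 is not in that count. The share of such names over all genes tested was not counted, so these counts have no background.

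The single GdX-deficient library at 6 h was set beside these calls, with no replicate of its own. Of the 84 genes called higher with 4 libraries at 90 min, 77 (91.7%) lay above both wild-type libraries at 6 h, where 54.9% of all genes tested did. Of the 97 called lower, 43 (44.3%) lay below both, where 25.3% of all genes did, and 39 (40.2%) lay above both. The cytokines and chemokines were mostly on the lower side at both times: their list medians at 6 h were -0.64 and -0.999. Il6 at that time stood at 1.35 FPKM in GdX-deficient spleen and at 34.7 and 31.1 FPKM in wild type. The stromal list was on opposite sides: 13 of its 16 members lay above both wild-type libraries at 6 h and 1 below, with a median of 0.91. The median of all genes at 6 h was 0.32, and other lists stood as high in that library, among them B-cell markers at 1.49, T-cell markers at 1.01 and red pulp macrophage markers at 0.94. Complement genes (0.50), platelet markers (0.33) and homeostatic chemokines (0.33) also had medians of the other sign than at 90 min.

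A test of the difference between the times, in the fit of 7 libraries, called 8 genes (0.0703%), and 1136 (9.98%) had an unadjusted p under 0.05. Des, a gene outside the naming rule that was picked after its values were seen, was the only stromal marker among the 8. At 6 h it stood at 31.04 FPKM in GdX-deficient spleen and at 6.85 and 6.19 FPKM in wild type, a difference of 2.09 against -1.29 at 90 min (limma adjusted p = 0.043 for the difference between times). Cd5l, a secreted macrophage protein, went from -0.53 at 90 min to 2.62 at 6 h (limma adjusted p = 0.043). The count was 0 to 238 over the alternatives tried, among them 0 with a pseudocount of 0.1, with the filter raised to 5 FPKM and after rescaling without globins. The lone GdX-deficient library at 6 h is assumed to vary like the other groups, and its own deviation and a genotype effect cannot be told apart.

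**Figure D5:**
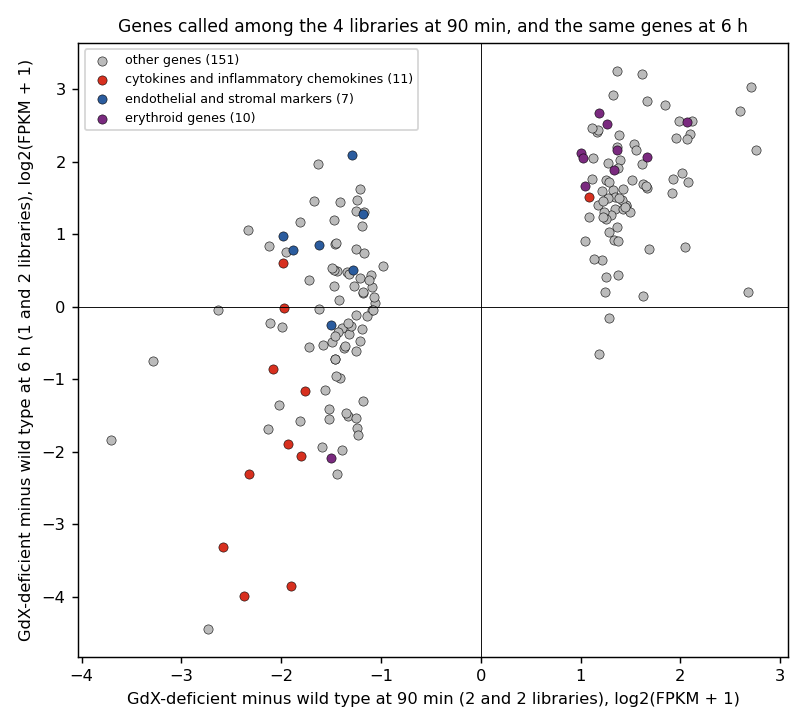
Difference between GdX-deficient and wild-type spleen, log2(FPKM + 1), at 90 min (horizontal, 2 and 2 libraries) and at 6 h (vertical, 1 and 2 libraries) for the genes called among the 4 libraries at 90 min, without Hbb-b1 and Hbb-b2. Most higher calls lie above 0 at 6 h; stromal markers lie left of 0 and mostly above 0, and most cytokines and chemokines lie left of 0 and below 0.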

How the data were processed

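Libraries of mouse spleen RNA were read on a BGISEQ-500, according to the labels. FPKM values per gene are the authors', as deposited. The submitters' processing notes name HISAT, HISAT2 2.0.4, Bowtie2, RSEM and GRCm38.p5, without saying which tool made which value. Libraries were grouped by title. A pseudocount of 1 was added, log2 was taken, and limma 3.58.1 in R 4.3.3 (moderated with a mean-expression trend, two-sided, Benjamini-Hochberg over all genes tested) was fitted to 4 groups of 7 libraries, and as an alternative to the 4 libraries at 90 min. Its moderated degrees of freedom were 9.36 and 27.8. The code was tested on simulated data. Lists were counted, not tested.

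The gene lists and the comparison were chosen with earlier results of these data known. Genes named are Ubl4a and its overlapping entry, all calls with 7 libraries, the 15 genes of smallest p in each direction with 4 libraries (predicted Gm or Rik entries and antigen receptor segments left out here and in the lists), the first 4 of each list, and up to 4 members of each list per direction with the largest difference and no overlap. From these the text gives those needed to describe a group, and some are not reported here. Csf3r, Des and genes that differ between times are named outside that rule, after their values were seen. Alternatives were another pseudocount, other filters, quantile normalization, rescaling without globins, removal of a length trend, a replicate block and leaving out each library. Their use on the fit of 4 libraries, and a crossed block, were chosen after seeing the data. Fragment counts were not used here, so depth is an estimate.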

Additional observations from a re-analysis of the deposited data

Results flagged for a closer look

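The limma contrast of the genotype difference at 90 min with that at 6 h passed for 8 genes (adjusted p between 0.0422 and 0.0488), a count that was 0 under several of the settings given below. The values below are the difference at 90 min minus that at 6 h on the log2(FPKM + 1) scale, and GdX-deficient spleen at 6 h is 1 library, whose own deviation and a genotype effect cannot be told apart. For 4 of them, genes of amino acid supply and the stress response, both wild-type libraries at 6 h lay above the other 5 libraries. Slc7a3, a cationic amino acid transporter (3.62), stood at 12.8 and 13.7 FPKM in wild type at 6 h, 0.31 FPKM in GdX-deficient spleen at that time and at most 0.42 FPKM at 90 min. Trib3, a pseudokinase induced by ATF4 (3.59), stood at 51.1 and 52.8 FPKM in wild type at 6 h and at 3.27 FPKM in GdX-deficient spleen. Cth, cystathionine gamma-lyase (3.00), stood at 9.74 and 11.2 FPKM against 0.23 FPKM, and Bcat1, a branched-chain aminotransferase (2.73), at 10.2 and 9.34 FPKM against 0.53 FPKM.

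The other 4 were low in wild type at 6 h. H2-Oa, an MHC class II modulator of B cells (-3.39), stood at 10.5 and 7.66 FPKM in wild type at 6 h and at 98.9 FPKM in GdX-deficient spleen, close to the 84.8 to 109 FPKM of all 4 libraries at 90 min. Ephx1, a microsomal epoxide hydrolase (-3.40), stood at 3.54 and 4.08 FPKM against 45.3 FPKM, and Cd5l (-3.15) at 8.36 and 6.37 FPKM against 50.1 FPKM. Des (-3.39) is described above and was the only 1 of the 8 called between genotypes at 90 min with 4 libraries.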

How the results depend on the processing

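With 7 libraries the 2 calls were kept in number under every planned pseudocount, filter, quantile, globin and block setting, and were 0 (0 higher) with the length trend removed, where Hbb-b1 and Hbb-b2 have no length and were not tested. With 4 libraries at 90 min the count was 181 (84 higher, 97 lower). Leaving out 1 library, the fit of 7 gave 2 to 183 calls in all, 2 to 85 higher and 0 to 98 lower. In the fit of 4 libraries the count was 5 after quantile normalization (2 higher, 3 lower), 346 after rescaling without globins (255 higher, 91 lower) and 8 with the length trend removed (4 higher, 4 lower). Leaving out 1 library there gave 56 to 2059 calls, 16 to 1389 higher and 40 to 670 lower, where the lone library of a genotype is assumed to vary like the other group. The cause of these changes was not tested.

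The count for the difference between times, 8, was 0 with a pseudocount of 0.1, 3 with no filter, 0 with a mean FPKM of at least 5, 4 after quantile normalization, 0 after rescaling without globins and 64 with the length trend removed, and 0 to 238 leaving out 1 library. With the replicate block, which pairs libraries by number, it was 80, and the crossed block gave 0. The 2 calls at 90 min were 2 with either block. Deviations of same-numbered libraries correlated at -0.12 between genotypes at 90 min, 0.768 between wild-type libraries at the 2 times and 0.0797 between the remaining pair, so the numbers were not taken to pair the samples.

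Of the changes tried for named genes, 22 turned the sign, in 11 genes whose genotypes overlapped. Quantile normalization gave Ifit1 0.21 and Spic 0.21, and rescaling without globins gave them 0.17 and 0.20. Removal of the length trend gave Ccl5 0.13, Pecam1 -0.060 and Spic 0.13. Leaving out 1 library at a time, the log2 difference ran from -0.041 to 0.68 for Bag6, from -0.90 to 0.30 for Ccl5, from -1.21 to 0.38 for Hspa1b, from -0.18 to 0.11 for Ifit1, from -0.27 to 0.39 for Isg15, from -0.49 to 0.018 for Kdr, from -0.64 to 0.11 for Nfkb1, from -0.17 to 0.19 for Pecam1, from -0.037 to 3.05 for Retnlg, from -0.077 to 0.068 for Spic and from -0.89 to 0.14 for Tnf. Of 592 list medians recomputed, 508 moved by less than the spread between replicates, which does not show that they are stable. Dropping a library of the later time, or fitting those of the earlier time alone, cannot change these medians. The spread is also wider where the GdX-deficient libraries disagree more. The cytokine median of -0.66 ran from -1.43 to -0.14 on leaving out either of them. Counts out of 16 alternatives include the same fixed settings.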
